A study of Arabidopsis thaliana with 4 samples.

Results

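NRG2 and the HHO genes HHO1, HHO2, HHO3, HHO5 and HHO6 are regulators of the nitrate response and their close relatives in Arabidopsis thaliana. The 6 genes were chosen by locus, AT3G60320, AT3G25790, AT1G68670, AT1G25550, AT4G37180 and AT1G49560. No threshold on a measured value was used, but earlier results of these data were known when they were chosen. Each had exactly 1 row of the array named with a single gene, so 6 of the 16548 genes with a named row are described. Root RNA was hybridised to 4 Affymetrix Arabidopsis Gene 1.0 ST arrays, 1 for each genotype: the lines labelled CEPD1ox, CEPD2ox and CEPDL2ox, and wild type (WT, accession Columbia). CEPD polypeptides are small glutaredoxin-like proteins known to travel from shoot to root as signals of nitrogen demand, and the suffix marks overexpression. The promoter of the transgenes, the number of lines or clones behind each name and the number of plants pooled per array are not given in the labels used here. Every genotype was raised under constant light at 22 °C, received ample nitrogen (KNO3 and NH4Cl at 10 mM each) from day 7, and was sampled on day 14 without any other treatment. The array data name no genome build. The TAIR10.1 gene table was used for names and gene order, and its coordinates are not printed. By their locus identifiers NRG2 and HHO1 lie on chromosome 3, HHO2, HHO3 and HHO6 on chromosome 1, and HHO5 on chromosome 4.

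Nitrate is both a nutrient and a signal for plant roots. NRG2 is a nuclear protein with DUF630 and DUF632 domains that promotes the nitrate response, binds the transcription factor NLP7 and acts upstream of the nitrate sensor NRT1.1. The HHO genes encode GARP-type DNA-binding proteins: HHO1, HHO2 and HHO3 belong to the NIGT1 group of repressors, which nitrate induces through the NLP factors and which hold back NRT2.1, other nitrogen starvation genes and their own genes. The comparison asks whether these regulators differ in transcript level in roots where CEPD signals are overexpressed, in a study whose title concerns a phosphatase acting on the transporter NRT2.1.

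Because each genotype has 1 array, the spread between replicates is unknown and nothing could be tested. The values below are log2 signals as deposited, a difference is the log2 signal of a line minus that of WT, and the 3 differences of a gene share the single WT array. To show how much genes vary between single arrays, each difference was set beside the range from the 5th to the 95th percentile over all kept genes of the same signal class. Kept genes are those with a log2 signal of at least 2.78 on 1 array or more, and all 6 regulators passed on every array. The classes were a mean log2 signal below 3, 3 to 5, 5 to 7, and 7 and above. Such a range is a description of these arrays and not a replicate error, and by construction 10.0% of genes lie outside it.

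The labels were checked first. CEPD2 (AT2G47880) had a log2 signal of 9.22 in CEPD2ox, against 1.41 in WT. The locus of CEPDL2 was not settled here, so the CEPDL2ox label could not be checked in this way. AT3G62960, a gene of the same glutaredoxin family, had 5.49 in CEPDL2ox, against 3.46 in WT. It is named because it was high on that array. Another gene of the family, AT2G47870, had 4.49 in CEPDL2ox, against 4.11 in WT. CEPD1 (AT1G06830) had 3.04 on the CEPD1ox-labelled array, against 2.66 in WT, so overexpression of the gene was not seen on that array, and every direction drawn from it below carries this limit. CEPH (AT4G32950), a gene for a type 2C protein phosphatase, had 5.45 on the CEPD1ox-labelled array, 5.87 in CEPD2ox and 7.51 in CEPDL2ox, against 3.67 in WT. The 4 arrays had median log2 signals between 5.11 and 5.18 over all rows. Of 10 root markers, 2 had a named row, namely the root hair expansins EXPA7 and EXPA18, with log2 signals between 6.58 and 8.63 on the 4 arrays. Of 9 leaf markers, RCA and PRK had one. Their summed linear signal was 62.9 on the CEPD1ox-labelled array, 78.3 in CEPD2ox and 56.2 in CEPDL2ox, against 103 in WT, with no marker at the lowest signal of an array. In the same order PRK was at -1.31, -1.63 and -2.10 from WT on the log2 scale, and RCA at -0.58, -0.17 and -0.65. The CEPDL2ox signal of PRK, 2.47, lay below the filter value, so the size of its last difference is limited by background. The summed root markers were at 433 on the CEPD1ox-labelled array, 377 in CEPD2ox and 509.9 in CEPDL2ox, against 399.6 in WT. Of the 6 leaf marker differences from WT, 5 lay outside their class ranges, all of them below WT. Of the 6 root marker differences 1 did, EXPA18 in CEPDL2ox at 0.39 above WT. Whether these markers have a part in the values of NRG2 and the HHO genes was not tested. In bulk root RNA, fewer cells that express a gene and less RNA per cell cannot be told apart.

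No gene of the group differed from WT by 2-fold in any line. This was 0 of 6 genes on the CEPD1ox-labelled array, where 1.21% of the 13232 genes kept by the signal filter did so in either direction, 0 of 6 in CEPD2ox, where 0.899% did, and 0 of 6 in CEPDL2ox, where 1.26% did. At 1.5-fold the count was also 0 of 6 in each line, beside 6.92%, 5.93% and 6.63% of all kept genes in the same order. With background shares this small, a count of 0 among 6 genes is not a result about these genes. The median difference of the 6 genes was -0.11 on the CEPD1ox-labelled array, -0.14 in CEPD2ox and 0.07 in CEPDL2ox, and the medians over all kept genes were 0.00 in each. All 18 differences from WT lay inside the range of their signal class.

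**Figure D1:**
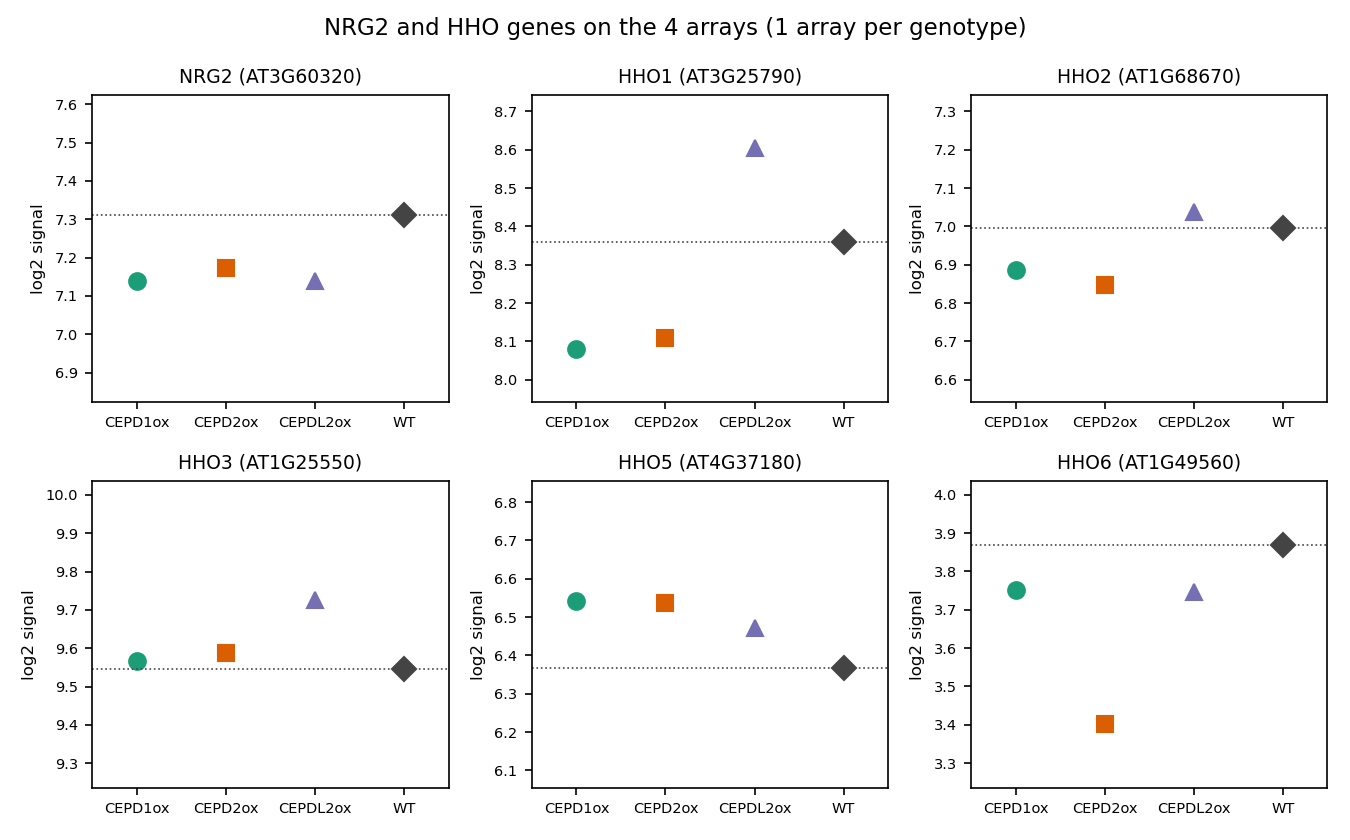
Log2 signal (vertical axis) of NRG2 and the 5 HHO genes on the 3 line arrays and the WT array, 1 point per array, with the WT value as a dotted line. Each panel has its own level but the same height in log2 units. HHO1 was highest in CEPDL2ox at 8.60, and HHO6 was lowest in CEPD2ox at 3.40.

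NRG2, the activator of nitrate signalling, had log2 signals of 7.14 on the CEPD1ox-labelled array, 7.17 in CEPD2ox and 7.14 in CEPDL2ox, against 7.31 in WT. The lines thus lay within 0.04 of each other, and all lay below WT. The differences from WT were -0.17, -0.14 and -0.17 in the same order, at most 1.13-fold. Genes in the class of 7 and above ranged from -0.29 to 0.26 on the CEPD1ox-labelled array, from -0.29 to 0.24 in CEPD2ox and from -0.28 to 0.30 in CEPDL2ox. The distance between the highest and lowest of the 4 arrays was 0.17 for NRG2, and the median of this distance over the 3942 genes of that class was 0.20. The order of the arrays, WT above CEPD2ox, CEPDL2ox and the CEPD1ox-labelled array, therefore rests on steps smaller than this median.

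Among the repressors of the NIGT1 group, HHO1 varied most. Its log2 signal was 8.08 on the CEPD1ox-labelled array, 8.11 in CEPD2ox and 8.60 in CEPDL2ox, against 8.36 in WT. WT lay between CEPDL2ox above and the other lines below. The differences from WT were -0.28, -0.25 and 0.25, which are 1.21-, 1.19- and 1.19-fold in size, and those on the CEPD1ox-labelled array and in CEPD2ox lay close to the lower end of the class range, at percentiles 5.45 and 7.15. In CEPDL2ox the percentile was 91.6. From the highest to the lowest array HHO1 spanned 0.52, a distance larger than that of 95.1% of the genes in its class.

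HHO2 had log2 signals of 6.89 on the CEPD1ox-labelled array, 6.85 in CEPD2ox and 7.04 in CEPDL2ox, against 6.99 in WT. As for HHO1, CEPDL2ox lay above WT and the other lines below it, but over a distance of 0.19, below the median of 0.30 for its class of 5 to 7. The differences from WT were -0.11, -0.15 and 0.04. The mean signal of HHO2 lies just under the class limit of 7.

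HHO3 had log2 signals of 9.57 on the CEPD1ox-labelled array, 9.59 in CEPD2ox and 9.73 in CEPDL2ox, against 9.55 in WT. CEPDL2ox was again the highest array, and here WT was the lowest. The differences from WT were 0.02, 0.04 and 0.18, and the last lay at percentile 84.6 of its class. HHO1, HHO2 and HHO3 each had their highest signal in CEPDL2ox, by 0.25 over the next array for HHO1, 0.04 for HHO2 and 0.14 for HHO3. Of the 6 regulators these were 3, beside 26.3% of all kept genes with their highest signal on that array. The same held for 2 of 2 root markers and 2 of 2 reference genes, but for 0 of 2 leaf markers. It held for 1 of 2 other GARP family genes. Among relatives of NRG2 it held for 2 of 11, where AT5G54480 could not count because it passed the filter only through WT. The 2 of 5 genes of the CEPD family and CEPH carry no weight here. CEPD1 and CEPD2 passed the filter only on the arrays labelled with their names, and AT3G62960 was named because it was high in CEPDL2ox. The statement below rests on the other lists. A highest signal in CEPDL2ox was thus not confined to these repressors, and whether it was more frequent among them was not tested.

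HHO5, also known as an interactor of the trithorax-group factor ULTRAPETALA1 in flowers, had its highest signals elsewhere. Its log2 signal was 6.54 on the CEPD1ox-labelled array, 6.54 in CEPD2ox and 6.47 in CEPDL2ox, against 6.37 in WT. All lines lay above WT, by 0.17, 0.17 and 0.10, at most 1.13-fold, and CEPDL2ox was the lowest of the lines. Genes of the class of 5 to 7 ranged up to 0.39, 0.37 and 0.43 in the same order.

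The signals of HHO6 fell in the class of 3 to 5, all 4 of them above the filter value of 2.78. They were 3.75 on the CEPD1ox-labelled array, 3.40 in CEPD2ox and 3.75 in CEPDL2ox, against 3.87 in WT. The CEPD2ox array stood apart downward, with a difference of -0.47 from WT, 1.38-fold in size, while the other lines were at -0.12 each. This was the largest difference from WT in the group, and it lay at percentile 7.85 of the class of 3 to 5, in which genes ranged from -0.56 to 0.63 in CEPD2ox. Signals near background understate differences in RNA and vary more between arrays, as the wider range of this class shows.

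**Figure D2:**
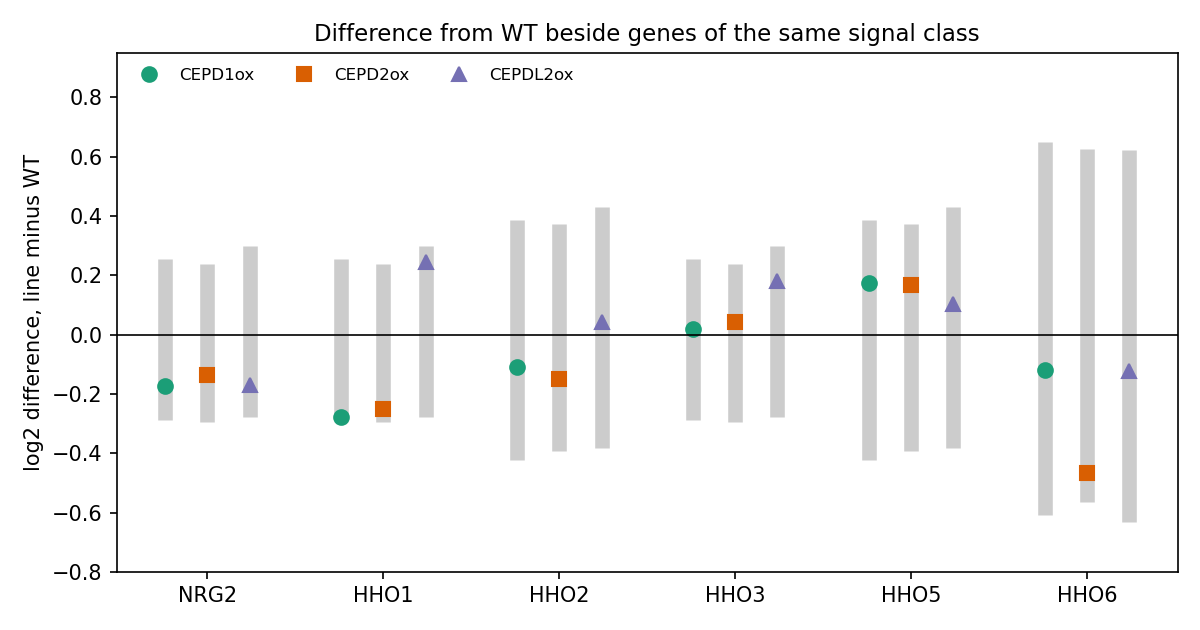
Log2 difference of each line from WT (vertical axis) for NRG2 and the HHO genes, 1 point per line. Grey bars run from the 5th to the 95th percentile of the same difference over all kept genes of the gene's signal class. All 18 points lie inside their bars.

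The lines were also set against each other directly, which leaves out the WT array that the comparisons above share. These comparisons were added after the values were seen. HHO1 was 0.52 higher in CEPDL2ox than on the CEPD1ox-labelled array, with 8.60 against 8.08, a 1.44-fold difference at percentile 99.3 of its class. It was 0.50 higher in CEPDL2ox than in CEPD2ox, with 8.60 against 8.11, a 1.41-fold difference at percentile 98.3. Genes of that class ranged from -0.21 to 0.28 in the first comparison and from -0.26 to 0.35 in the second. The first pair holds the highest and lowest arrays of HHO1, so its 0.52 is the span over the 4 arrays given above. As a span it was larger than that of 95.1% of its class, and percentile 99.3 makes it look more extreme. Both comparisons share the CEPDL2ox array, so they are not separate measurements. CEPD2ox and the CEPD1ox-labelled array differed by 0.03 in HHO1.

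These 2 differences of HHO1 were the only ones outside the class ranges among the 18 differences between lines, beside 10.0% of all kept genes in each comparison. This share is near the background, so it is not a result about the group. Between CEPDL2ox and CEPD2ox, the other differences were 0.34 for HHO6, 0.19 for HHO2, 0.14 for HHO3, -0.07 for HHO5 and -0.03 for NRG2. Between CEPDL2ox and the CEPD1ox-labelled array they were 0.16 for HHO3, 0.15 for HHO2, 0.00 for NRG2 and HHO6, and -0.07 for HHO5. With the arrays shifted to a common median these became 0.08 for HHO3 and HHO2, -0.07 for NRG2, -0.08 for HHO6 and -0.15 for HHO5, so their sizes rest on the scaling. Between CEPD2ox and the CEPD1ox-labelled array, HHO6 differed by -0.35, inside its class range of -0.65 to 0.66, and the other 5 genes lay between -0.04 and 0.04.

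**Figure D3:**
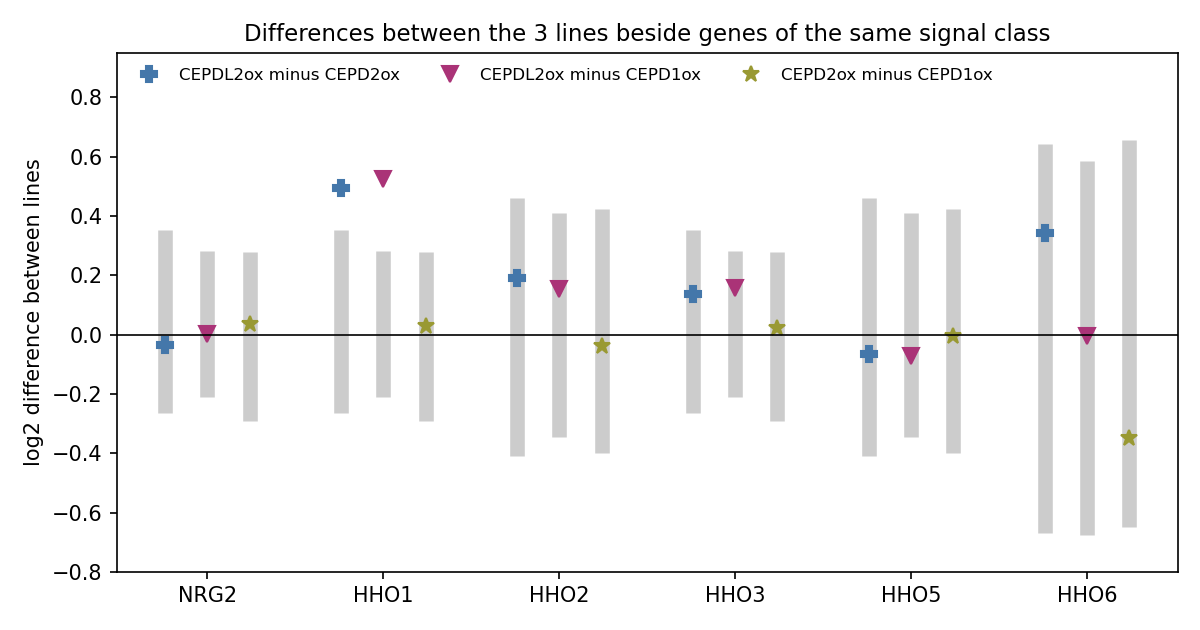
Log2 difference between pairs of lines (vertical axis) for NRG2 and the HHO genes, with grey bars from the 5th to the 95th percentile over kept genes of the same signal class. Both comparisons of HHO1 that involve CEPDL2ox, at 0.50 and 0.52, lie above their bars, and the other 16 points lie inside.

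Relatives of NRG2 were read from a list of 14 other Arabidopsis genes for proteins with DUF630 and DUF632 domains, drawn from knowledge of the family. Named rows existed for 11 of them, and all 11 passed the filter. None was 2-fold from WT in any line, beside 1.21% of all kept genes on the CEPD1ox-labelled array, 0.899% in CEPD2ox and 1.26% in CEPDL2ox. With shares this small, a count of 0 among 11 genes is not a result about the family. The median difference was -0.09 on the CEPD1ox-labelled array and -0.11 in both CEPD2ox and CEPDL2ox, with 8, 7 and 7 of 11 below 0. In the same order NRG2 itself was at -0.17, -0.14 and -0.17. The relative AT5G54480 passed the filter only through WT, at 2.84, so its place below 0 in every line was set by the filter. It is also the median gene in CEPD2ox. The share of all kept genes below 0 was not computed, so these counts are not a result about the family.

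The relatives with the largest mean difference were AT5G25590 and AT5G54480 below WT, AT2G34670 above it and AT1G20530 below. AT5G25590 had log2 signals of 6.05 on the CEPD1ox-labelled array, 5.82 in CEPD2ox and 5.95 in CEPDL2ox, against 6.26 in WT, differences of -0.21, -0.44 and -0.31. AT2G34670 had 5.29, 5.71 and 5.57 in the same lines, against 5.29 in WT, differences of 0.00, 0.42 and 0.28. AT5G54480 was at -0.22, -0.11 and -0.42 from WT, with all 3 line signals below the filter value, and AT1G20530 was at -0.09, -0.22 and -0.28. Of the 33 differences of the relatives, 3 lay outside their class ranges, all in CEPD2ox. These were -0.44 for AT5G25590, 0.42 for AT2G34670 and 0.38 for AT1G21740, the last chosen after its value was seen. Over all 33 differences this share is near the 10.0% of all kept genes outside these ranges. By line it was 3 of 11 in CEPD2ox and 0 of 11 in each of the others, beside 10.0% of all kept genes in each comparison.

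**Figure D4:**
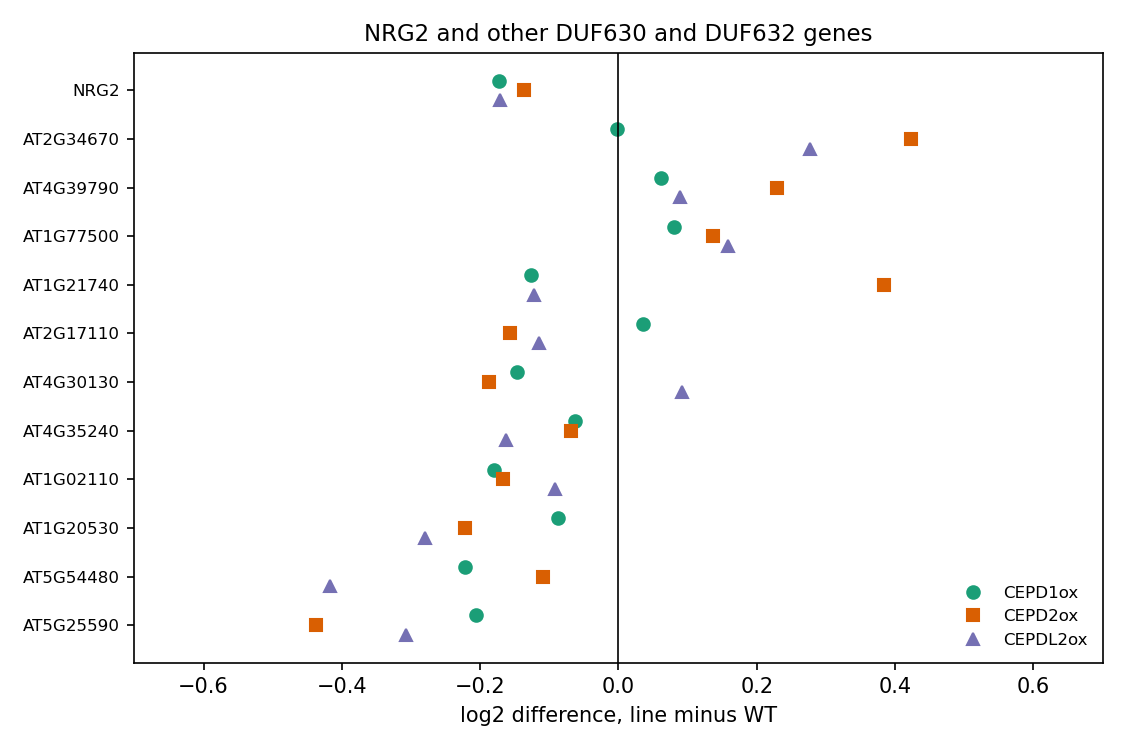
Log2 difference of each line from WT (horizontal axis) for NRG2 and 11 other genes of the DUF630 and DUF632 family, 1 point per line. The NRG2 points lie close together between -0.17 and -0.14, and the relatives spread from -0.44 to 0.42.

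Relatives of the HHO genes were few on the named rows. Of 15 other genes of the GARP family, 2 had one and both passed the filter. None was at 2-fold, beside 1.21%, 0.899% and 1.26% of all kept genes in the same order of lines. This count is not a result about the family. AT3G24120 (PHL2), from the group of phosphate starvation regulators, was at -0.17 on the CEPD1ox-labelled array, -0.25 in CEPD2ox and 0.01 in CEPDL2ox. MYR2 was at -0.23, 0.30 and -0.07. All 6 of these differences lay inside their class ranges. Of 32 other nitrate signalling and response regulators, HRS1 and HHO4 among them, none had a row named with 1 gene, and they were not analysed here. Of 19 genes for nitrate uptake and assimilation and other HHO targets, only the high-affinity transporter gene NRT2.5 had one. It lay below the filter value on all arrays, with 2.13 on the CEPD1ox-labelled array, 2.57 in CEPD2ox and 2.15 in CEPDL2ox, against 1.99 in WT. Whether genes that the HHO repressors act on, other than their own genes described above, differed could therefore not be read.

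The genes next to each regulator in the TAIR10.1 gene table were read as well. Among the 12 protein-coding neighbours, 6 were on named rows and 5 were kept by the filter, and none of the 12 overlapped the regulator it adjoins in that table. The neighbour of HHO6, AT1G49570, had log2 signals of 6.04 on the CEPD1ox-labelled array, 6.30 in CEPD2ox and 6.65 in CEPDL2ox, against 4.18 in WT. This was 3.63-, 4.36- and 5.55-fold above WT, while HHO6 beside it lay below WT in every line, by up to 0.47. All differences of AT1G49570 lay outside their class ranges, and all of HHO6 lay inside. The signs of these adjoining genes thus differed relative to the same WT array, but no change of HHO6 can be read from this.

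AT4G37170, next to HHO5, had log2 signals of 5.37 on the CEPD1ox-labelled array, 5.45 in CEPD2ox and 5.30 in CEPDL2ox, against 5.02 in WT. Like HHO5 it was above WT in each line, by 0.35, 0.44 and 0.29, of which the CEPD2ox value lay outside its class range. Both neighbours of HHO2 had its signs, with -0.23, -0.09 and 0.15 for AT1G68660 and -0.07, -0.14 and 0.17 for AT1G68680, all inside their class ranges. All these genes share the WT array. PHL2 and the reference gene UBC21, which do not adjoin HHO2, had these signs too, while MYR2 and the reference gene TIP41L did not. The share of all kept genes with these signs was not computed, so nothing about neighbourhood can be read from them. AT3G60310, next to NRG2, was at 0.04, 0.09 and -0.09. The other neighbour of NRG2, AT3G60328, lay below the filter value on all arrays.

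**Figure D5:**
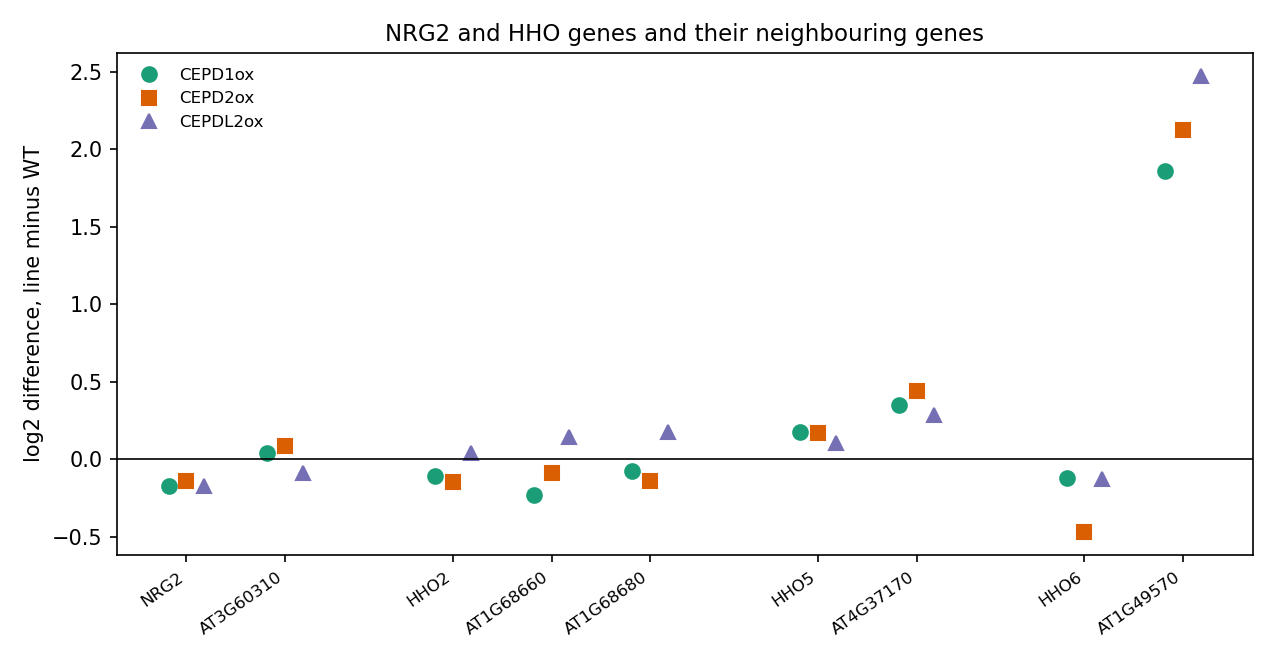
Log2 difference of each line from WT (vertical axis) for NRG2, HHO2, HHO5 and HHO6, each followed by its neighbouring genes that passed the filter, 1 point per line. AT1G49570 lies between 1.86 and 2.47, while HHO6 beside it lies between -0.47 and -0.12.

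The kept genes with the most similar pattern were found by the Euclidean distance between the 3 log2 differences from WT, over 4 arrays. The genes nearest to HHO1 were AT1G61430 at a distance of 0.03 and UGT72E1, a glycosyltransferase gene, at 0.04, and 16 kept genes lay within 0.1. The nearest to HHO6 were AT3G57680 at 0.03 and NCRK, a receptor-like kinase gene, at 0.04, with 26 genes within 0.1. The small differences of the other regulators were common. Within 0.1 lay 293 genes for NRG2, 244 for HHO2, 299 for HHO3 and 226 for HHO5. Their nearest genes were AT2G01070 and AT2G31410 for NRG2, AT5G51560 and AT5G11416 for HHO2, AT1G20950 and AT1G29060 for HHO3, and AT3G47530 and AT1G73650 for HHO5, at distances between 0.01 and 0.03.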

How the data were processed

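The authors deposited log2 signals per transcript cluster. The submitters' processing notes name Affymetrix Expression Console 1.3. How signals were summarized and normalized, and on which genome build, is not given in the sources used here. Log base 2 is an inference from the span of the values, 0.431 to 13.8. The table has 38408 rows: platform annotation names 1 gene for 16722, several for 759 and none for 20927, and only the first kind was named, 16574 of them through the TAIR10.1 gene table. For a gene with several rows, the row with the highest mean was taken. The filter asked for at least 1 signal of 2.78 or more, the 25th percentile of gene values. It removed 3316 genes and kept 13232.

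Differences, folds and percentiles were computed with Python 3.11.15, numpy 2.4.6 and pandas 2.3.3, and other normalizations with R 4.3.3 and limma 3.58.1. Array number limits precision. The rule named the 6 genes, up to 4 kept genes per list with the largest mean difference or any past 2-fold, and per regulator the 2 nearest genes. The genes and lists were chosen with earlier results of these data known, and comparisons between lines and neighbours were added after the values were seen. The names CEPD1, CEPD2, NRG2 and HHO come from knowledge of the loci. The lists also held 5 reference genes, of which 2 had a named row (TIP41L and UBC21) with differences between -0.28 and 0.25.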

Additional observations from a re-analysis of the deposited data

How the results depend on the processing

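The count of genes 2-fold from WT was 0 in each line under every alternative run: thresholds of 1.5-fold and 3-fold, quantile normalization, cyclic loess, a shift of the arrays to a common median, no filter, a filter at the median, and averaging the rows of each gene. Some of these outcomes were fixed in advance. A 3-fold threshold cannot raise a count of 0, and the filter settings and row averaging moved no difference of these genes. The median difference of the group ranged from -0.11 to -0.06 on the CEPD1ox-labelled array, from -0.14 to -0.11 in CEPD2ox and from 0.05 to 0.10 in CEPDL2ox. No sign of a gene's difference from WT turned under these alternatives, and no difference from WT moved by more than 0.05. Differences between lines moved by up to 0.08, with the arrays shifted to a common median. That shift took HHO3 to 0.08 and HHO5 to -0.12 between CEPDL2ox and CEPD2ox. The sign of 4 differences between lines turned under a normalization, none larger than 0.02 as deposited: NRG2 and HHO6 between CEPDL2ox and the CEPD1ox-labelled array, and HHO3 and HHO5 between CEPD2ox and that array. A filter at the median left out HHO6. The difference of HHO1 was 0.45 to 0.52 between CEPDL2ox and the CEPD1ox-labelled array and 0.44 to 0.50 between CEPDL2ox and CEPD2ox. Both lay outside the class range in all 8 settings, the values as deposited and a class of 8 to 9 among them. That class, with 1220 genes, was added after the data were seen. The median shift moves HHO1 and its class range alike, and the filter settings left both unchanged, so these could not alter the outcome. Only quantile normalization, cyclic loess, row averaging and the class of 8 to 9 could. Their percentiles were 98.2 to 98.9 against CEPD2ox and 99.2 to 99.7 against the CEPD1ox-labelled array. The latter pair holds the highest and lowest arrays of HHO1, so these percentiles look more extreme than that of its span. No paired analysis was possible because each group has 1 array and no test was made.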
